A study of Mus musculus with 6 samples.

Results

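The 94 protein-coding genes whose symbol begins with Kcn, the potassium channel genes of the mouse, were read out of an RNA-seq count table of 55471 genes from the hippocampus. Membership was set by the symbol and the gene biotype alone, and no measured value was used. They comprised 30 genes for voltage-gated pore-forming subunits (Kcna, Kcnb, Kcnc, Kcnd, Kcnh and Kcnq), 10 for silent voltage-gated subunits (Kcnf, Kcng, Kcns and Kcnv), 15 for inward rectifiers (Kcnj) and 14 for tandem-pore leak channels (Kcnk). Another 8 genes encode channels gated by calcium or sodium and their closest relative (Kcnma, Kcnn, Kcnt and Kcnu), 16 encode accessory subunits (Kcnab, Kcne, Kcnip and Kcnmb) and 1, Kcnrg, a regulator. The table also held 5 antisense genes with such symbols (Kcnab3os, Kcnd3os, Kcnmb4os1, Kcnmb4os2 and Kcnq1ot1), which were not members.

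The hippocampus of 3 p300-ifKO mice was compared with that of 3 control littermates, with 1 library per mouse. All mice were C57BL/6 males between 3 and 6 months of age, and all received tamoxifen (20 mg/ml in corn oil) 5 times. The p300-ifKO mice carried Ep300_flox, a floxed form of the gene for the acetyltransferase p300, and Camk2a_creERT2, a transgene that recombines it only in excitatory neurons of the forebrain, so other cells of the tissue keep the gene. The recombined gene encodes a truncated protein that lacks the acetyltransferase domain. The protocol gives the controls no creERT2, whereas their sample description names that driver. Esr1, part of which is in the creERT2 construct, was at 1.23, 0.951 and 1.24 TPM in control and at 41.6, 28.0 and 31.5 TPM in p300-ifKO libraries, so the control libraries held little of it. The comparison asks whether potassium channel transcripts depend on p300 in adult neurons. Because whole tissue was sequenced, fewer cells of a type and less RNA per cell cannot be told apart.

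Potassium channels let potassium leave or enter the cell along its gradient and thereby set the resting potential and end action potentials. Voltage-gated channels are tetramers of pore-forming subunits that open on depolarization, inward rectifiers and leak channels act near rest, and calcium-activated channels shape the afterhyperpolarization. Silent subunits form no channel of their own and join Kcnb subunits, and accessory subunits alter the gating or transport of the pores. In hippocampal pyramidal neurons, A-type, M-type and G protein-gated potassium currents are known to limit excitability.

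The 6 libraries held from 23151568 to 28433823 counts, and 55230 genes (99.57%) matched the annotation. Ep300 was at 16.6, 15.4 and 25.7 TPM (transcripts per 1000000, a level corrected for exonic length) in control replicates 1 to 3, and at 4.51, 15 and 9.58 TPM in p300-ifKO replicates 1 to 3. The p300-ifKO replicate 2 library thus lay next to the lowest control. Ep300 was not called (log2 fold change −0.97, adjusted p 0.991 in DESeq2). Counts over the whole gene can include transcripts of the recombined gene, so they do not measure recombination. The driver genes were raised in p300-ifKO replicate 2 too, with Esr1 at 28.0 TPM as given above. Arsi, which lies on the driver transgene, was at 1.49, 1.21 and 2.05 TPM in control. In p300-ifKO replicates 1 to 3 Arsi was at 9.24, 8.94 and 8.60 TPM. The libraries also differed in how counts depended on exonic length, which is described below for the members. Markers of choroid plexus, a tissue outside the hippocampus proper, summed to between 27.4 and 397 TPM in control and between 106 and 593 TPM in p300-ifKO libraries.

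Most potassium channel genes were detected. Of the 94 genes, 51 had a mean of at least 10 TPM over the 6 libraries, 25 had between 1 and 10 TPM, and 18 had less than 1 TPM. Kcnj1, the renal outer medullary rectifier, was the 1 gene with no read in any library, and a count of 0 allows up to 3 counts in a library. A mean of at least 10 normalized counts (counts divided by the size factor of the library) was reached by 80 genes, and the other 14 were too low for a stable fold change. The 10 most abundant genes held 49.76% of the summed TPM of all members.

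**Figure D1:**
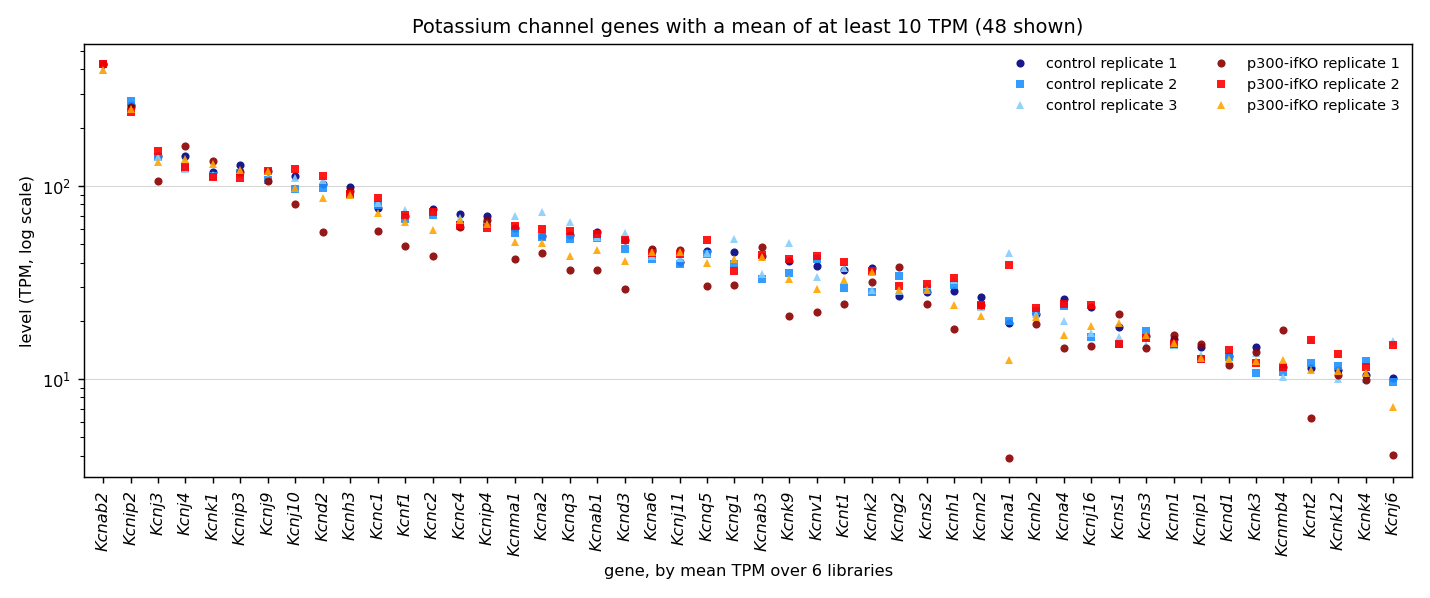
Level of each potassium channel gene with a mean of at least 10 TPM (48 of the 51 are shown), in TPM on a log axis, with 1 point per library: circles, squares and triangles are replicates 1, 2 and 3, in blue for control and in red to orange for p300-ifKO. Genes run from Kcnab2 at a mean of 417 TPM to Kcnj6 at 10.2 TPM, and p300-ifKO replicate 1 is the lowest point for many of them.

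Summed over all members, control mice had a level of 3401 ± 96.9 TPM and p300-ifKO mice one of 3196 ± 280 TPM (SD, n = 3 each). The difference was smaller than the spread between p300-ifKO mice. Voltage-gated pore-forming genes summed to 1139, 1095 and 1224 TPM in the control libraries and to 822, 1217 and 985 TPM in the p300-ifKO libraries, where replicate 2 came near the highest control. Accessory genes summed to 1003 ± 36.0 against 985 ± 17.0 TPM (SD, n = 3 each), nearly as much as the pores. Inward rectifiers summed to 584 ± 31.4 against 579 ± 42.0 TPM, and tandem-pore channels to 242 ± 13 against 246 ± 4.92 TPM (SD, n = 3 each). Silent subunits summed to 255 ± 4.30 against 231 ± 21 TPM, and calcium- or sodium-activated channels to 164 ± 14.2 against 145 ± 24.0 TPM (SD, n = 3 each). The ranges of the groups overlapped in every class but the silent subunits, where the lowest control library was at 251 TPM and the highest p300-ifKO library at 249 TPM, a gap smaller than the spread between p300-ifKO mice.

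**Figure D2:**
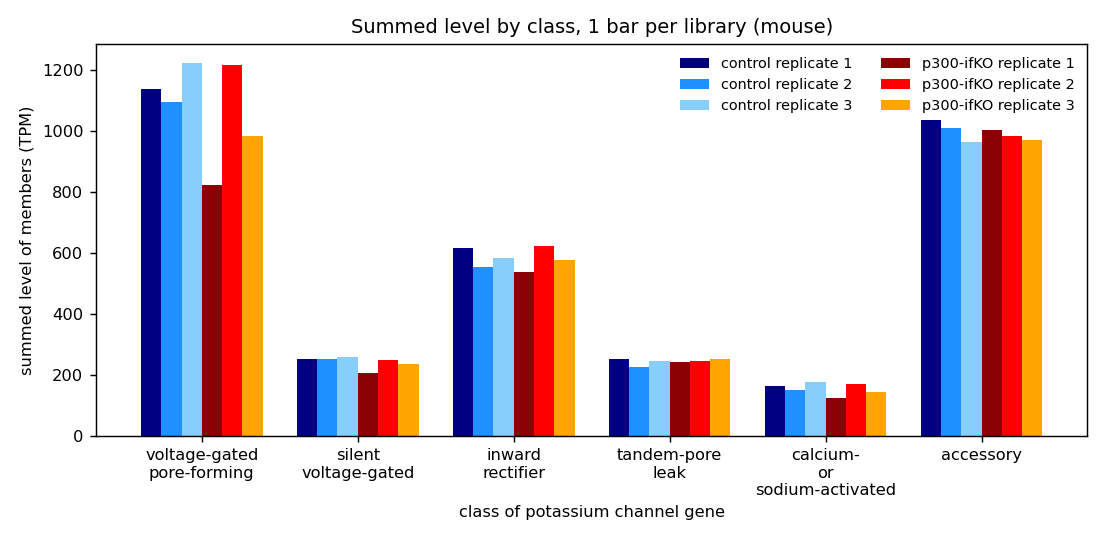
Summed level in TPM of the members of each class, with 1 bar per library and the axis starting at 0: blue bars are the 3 control and red to orange bars the 3 p300-ifKO libraries. The p300-ifKO replicate 1 library has the lowest sum for voltage-gated pore-forming genes (822 TPM), and tandem-pore sums differ little between groups.

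Among voltage-gated pores, the M-current genes Kcnq3 and Kcnq5 had means of 52.0 and 42.9 TPM over all libraries, while Kcnq1, known from the heart, had 0.769 TPM. Kcnd2, the main pore of the somatodendritic A-type current, had 102, 97.7 and 107 TPM in control and 57.8, 113 and 86.7 TPM in p300-ifKO mice. Kcnd3 followed at a mean of 46.6 TPM and Kcnd1 at 12.9 TPM. The control values of Kcnd2 lay close together, whereas its p300-ifKO values spanned a wide range with replicate 1 lowest and replicate 2 highest.

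The Kcnc genes encode rapidly gating delayed rectifiers that are known for brief action potentials in interneurons. Kcnc1, Kcnc2 and Kcnc4 stood within a narrow band, with means of 75.8, 65.7 and 65.2 TPM. The delayed rectifier Kcnb2 had a mean of 5.16 TPM. The ether-a-go-go group was led by Kcnh3, whose level hardly varied: 98.8, 90.4 and 89.5 TPM in control and 93.5, 90.6 and 89.2 TPM in p300-ifKO libraries. Kcnh2, the cardiac HERG channel, had a mean of 21.6 TPM in this tissue.

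The Kcna genes, several of them axonal, stood at uneven levels. Kcna2 led with a mean of 56.2 TPM, followed by Kcna6 with 44.7 TPM, Kcna1 with 23.3 TPM and Kcna4 with 20.8 TPM, and 39.61% of the exonic bases of Kcna6 overlap an antisense gene. Kcna1 varied more between libraries than any other gene above 10 TPM: 19.5, 20.0 and 45.1 TPM in control and 3.90, 38.7 and 12.5 TPM in p300-ifKO mice. The groups overlapped for Kcna1, since the highest p300-ifKO library exceeded 2 of the 3 controls. Kcna3, best known from lymphocytes, showed the same order of extremes at a low level, with 0.882, 0.576 and 5.06 TPM in control and 0.304, 2.5 and 0.684 TPM in p300-ifKO libraries.

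These genes lie in gene clusters beside members with a smaller spread. Kcna1 is at chr6:126640397-126646384 and Kcna6 at chr6:126708329-126740674 (GRCm38, both on the minus strand), yet the coefficient of variation (SD as a percentage of the mean over 6 libraries) was 67.4% for Kcna1 and 4.48% for Kcna6. Kcna3 is at chr3:107036169-107038070 and Kcna2 at chr3:107101146-107115005 (plus strand), with 110% for Kcna3 and 17.2% for Kcna2. Of the other members in these clusters, Kcna5 had 20.0%, and Kcna10, at a mean of 3.31 normalized counts, had 47.8%. The median coefficient of variation was 15.09% over the 80 genes and 15.99% over all genes with the same minimum. Kcnab2 was the steadiest of the 80 genes, at 3.64%. What sets the level of Kcna1 and Kcna3 in single mice was not tested.

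Among silent subunits, Kcnf1 was the most abundant, with 69.9, 67.1 and 74.7 TPM in control and 48.8, 70.1 and 64.9 TPM in p300-ifKO libraries. Kcng1 had a mean of 41 TPM, Kcnv1 34.7 TPM and Kcns2 28.7 TPM. For Kcnv1, the p300-ifKO libraries were at 22.1, 43.4 and 29.1 TPM around control values of 38.4, 41.5 and 33.7 TPM, so the highest library was a p300-ifKO one. Kcnv2, known from the retina, was at a mean of 0.0404 TPM.

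Kcnj3 and Kcnj9, G protein-gated rectifiers that open after activation of inhibitory receptors, were among the most abundant inward rectifiers. Kcnj3 had 142, 141 and 140 TPM in control and 106, 152 and 132 TPM in p300-ifKO libraries, and 31.08% of its exonic bases overlap an antisense gene. Kcnj9 had a mean of 113 TPM, Kcnj6 only 10.2 TPM and the cardiac member Kcnj5 0.357 TPM. Kcnj4, a classical strong rectifier of forebrain neurons, had 142, 123 and 122 TPM in control and 161, 125 and 137 TPM in p300-ifKO mice, the highest value being that of p300-ifKO replicate 1. Kcnj11, the pore of the channel closed by ATP, had a mean of 43.0 TPM, and Abcc8, its sulfonylurea receptor, had 26.7, 25.8 and 28.5 TPM in control and 25.9, 30.8 and 27.2 TPM in p300-ifKO libraries.

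Members known from astrocytes and from choroid plexus were set beside markers of those cells. The astrocyte rectifier Kcnj10 had 112, 95.6 and 109 TPM in control and 80.4, 122 and 97.2 TPM in p300-ifKO mice. Its partner Kcnj16 had 23.5, 16.5 and 17.4 TPM in control and 14.7, 24.3 and 18.8 TPM in p300-ifKO mice. The 6 astrocyte markers summed to between 1637 and 1744 TPM in control and between 1360 and 1692 TPM in p300-ifKO libraries, and p300-ifKO replicate 1 was lowest for that sum and for both rectifiers. The markers did not all follow the sum, since Gfap was highest in p300-ifKO replicate 1, at 375 TPM.

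Kcne2 and Kcnj13, which are abundant in choroid plexus, were low and uneven. Kcne2 had 1.29, 0.620 and 2.27 TPM in control and 1.31, 1.90 and 2.86 TPM in p300-ifKO libraries. Kcnj13 had 0.120, 0.123 and 1.64 TPM in control and 0.455, 0.551 and 1.25 TPM in p300-ifKO libraries, with 49.06% of its exonic bases overlapped by an antisense gene. For Kcnj13 and Kcne2 control replicate 3 and p300-ifKO replicate 3 were the highest libraries, as they were for the choroid plexus marker Ttr (372 and 567 TPM). Of the 6 choroid plexus markers, Kl did not follow, since it was highest in p300-ifKO replicate 2, at 13.6 TPM. The part of choroid plexus tissue in these values was not tested. Kcnj8, the rectifier of pericytes, had a mean of 5.71 TPM and similar values in all libraries.

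Kcnk1 made up 49.07% of the summed level of tandem-pore genes, with 117, 112 and 114 TPM in control and 134, 112 and 130 TPM in p300-ifKO libraries. The acid-sensitive Kcnk9 had a mean of 37.1 TPM and the mechanically gated Kcnk2 33.1 TPM. Kcnk18, known from sensory ganglia, and Kcnk16, known from the pancreas, were at 0.0736 and 0.0321 TPM. Among calcium- or sodium-activated channels, Kcnma1, the large-conductance BK pore, had 60.1, 56.7 and 70.1 TPM in control and 41.7, 61.7 and 50.9 TPM in p300-ifKO libraries. The sodium-activated Kcnt1 had a mean of 33.4 TPM and the small-conductance Kcnn2 23.9 TPM. Kcnu1, known from sperm, had 4.36, 3.77 and 3.56 TPM in control and 4.72, 4.34 and 4.06 TPM in p300-ifKO mice, at similar levels in all 6 libraries.

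Accessory genes were led by Kcnab2, a cytoplasmic beta subunit of Kcna channels, with 425, 429 and 398 TPM in control and 426, 428 and 398 TPM in p300-ifKO libraries. Kcnip2, a calcium-binding partner of Kcnd channels, had 263, 275 and 250 TPM in control and 254, 241 and 248 TPM in p300-ifKO libraries. Both accessory genes exceeded the pores that they join, by mean TPM. Kcnip3 had a mean of 117 TPM, Kcnip4 64.5 TPM and Kcnip1 13.5 TPM. Kcnmb4, the neuronal beta subunit of the BK channel, had 11.5, 10.9 and 10.2 TPM in control and 17.9, 11.5 and 12.5 TPM in p300-ifKO mice, and 31.53% of its exonic bases overlap antisense genes. Kcne1l was the highest Kcne gene, at a mean of 9.46 TPM.

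No potassium channel gene passed the test of p300-ifKO against control. At an adjusted p under 0.05 in DESeq2, 0 of 93 genes were called, where 0.0061% of all 32773 genes were called. The edgeR quasi-likelihood test also called 0 of 81, where 0.0117% of all genes were called. At an unadjusted p under 0.05, DESeq2 gave 3 lower genes (3.23%), Kcnb2, Kcng3 and Kcnj2, against 0.546% of all genes, and 0 higher genes against 0.772% of all genes. At that limit edgeR gave 2 of 81 members (2.47%), Kcnb2 and Kcnj2, against 2.3% of all genes. DESeq2 without p300-ifKO replicate 2 gave 27 of 93 members (29%), against 12.8% of all genes. The DESeq2 shares of all genes at that limit include many genes with few counts, so they are not matched to the members in level. With all libraries, 17070 of the 32773 genes had a mean of at least 10 normalized counts, and 80 of the 93 members did.

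The median log2 fold change of the 80 genes was −0.04, with 47 genes on the lower and 33 on the higher side, and fitted values ran from −0.88 to 0.59. Over all 17070 genes with that minimum the median was −0.0051. For 35 of the 80 genes (43.75%) the 95% interval of the log2 fold change lay within ±0.5, against 38.6% of all genes. For the rest, the interval reached beyond −0.5 or 0.5, so a change of that size on that side could not be dismissed at this number of mice. The median of the 28 voltage-gated pores was −0.10, with 21 on the lower and 7 on the higher side. The median of the 14 accessory genes was 0.04, with 5 on the lower and 9 on the higher side.

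**Figure D3:**
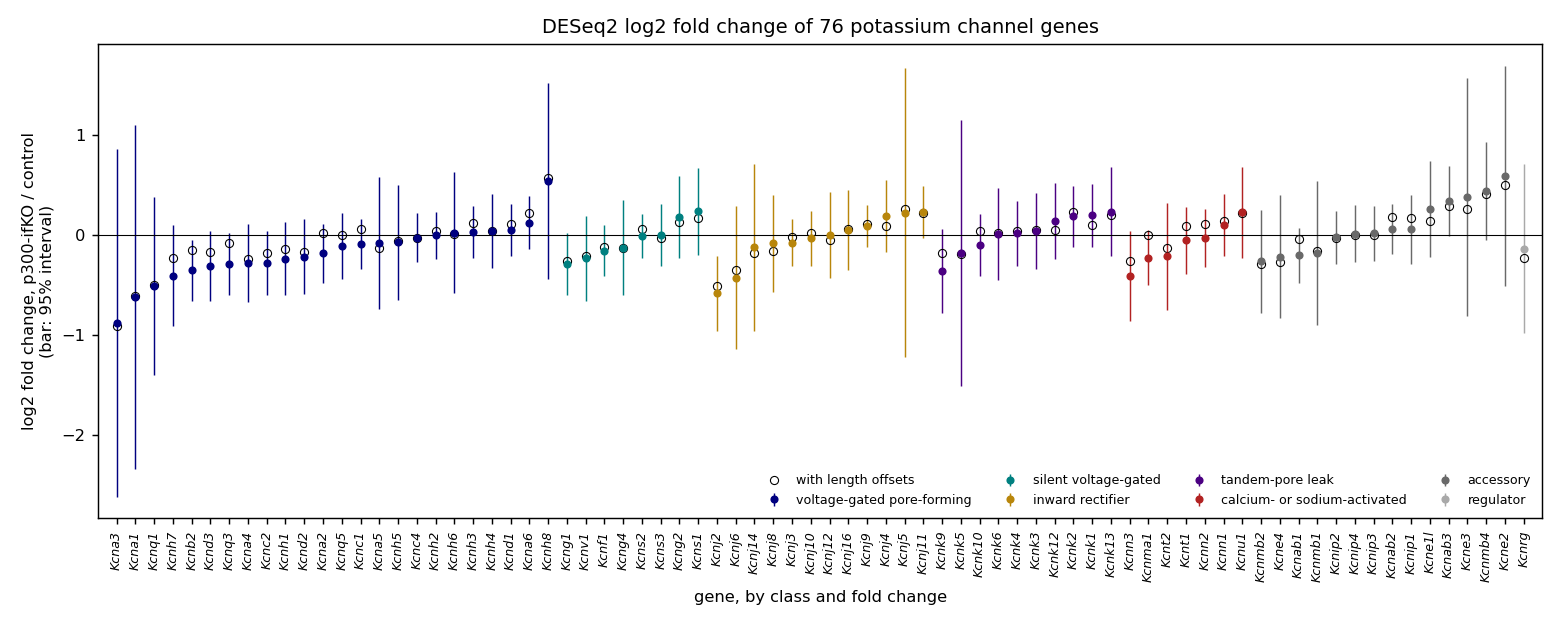
DESeq2 log2 fold change (p300-ifKO over control) of 76 of the 80 potassium channel genes with a mean of at least 10 normalized counts, ordered by class and value, with 95% intervals as bars; open circles are the values with length offsets, a smooth correction for exonic length in each library. Intervals of all but Kcnj2 and Kcnb2 cross 0, and the open circles of many voltage-gated pores lie nearer to 0.

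Kcnj2, a classical strong inward rectifier (ENSMUSG00000041695, chr11:111066164-111076821 on GRCm38, plus strand), had the smallest unadjusted p of the members. It was at 11.8, 8.54 and 10.5 TPM in control and at 6.85, 7.17 and 5.71 TPM in p300-ifKO libraries, so the groups did not overlap. Control mice had 365 ± 53.8 and p300-ifKO mice 244 ± 35.0 normalized counts (SD, n = 3 each). On the log2 scale this was a fold change of −0.59 (SE 0.19, 95% interval −0.97 to −0.21), lower in 3 of 3 mice, and DESeq2 gave an adjusted p of 0.991, so it did not pass the threshold. With an offset for exonic length in each library it was −0.51, and it stayed between −0.69 and −0.47 when each library was left out. Its neighbour Kcnj16 (chr11:110968033-111027968, plus strand) had a log2 fold change of 0.05 (SE 0.21).

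Kcnb2, a delayed rectifier (chr1:15287254-15723750, plus strand), was at 5.69, 5.64 and 6.27 TPM in control and at 3.47, 5.35 and 4.53 TPM in p300-ifKO libraries. The groups were apart by a small margin. On the log2 scale the fold change was −0.35 (SE 0.16), DESeq2 gave it an adjusted p of 0.991, and with length offsets it was −0.15. Kcng3, a silent subunit, was listed with a log2 fold change of −2.79 (SE 1.14) at a very low level: 0.136, 0.187 and 1.53 TPM in control and 0.0862, 0.125 and 0.0431 TPM in p300-ifKO mice. That value rested on control replicate 3.

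On normalized counts, the groups did not overlap for 4 of the 80 genes with p300-ifKO lower (5%; Kcnb2, Kcnc2, Kcnf1 and Kcnj2), against 3.37% of all genes. They did not overlap for 2 genes with p300-ifKO higher (2.5%; Kcnh8 and Kcnj11), against 4.09% of all genes. Both shares were near those of all genes. Kcnj11 (chr7:46093953-46100764, minus strand) was at 40.0, 39.2 and 42.4 TPM in control and at 46.6, 44.4 and 45.6 TPM in p300-ifKO libraries, with a log2 fold change of 0.23 (SE 0.13). Kcnf1 (chr12:17172100-17176888, minus strand) had −0.16 (SE 0.13) and Kcnc2 (chr10:112271121-112467024, plus strand) −0.28 (SE 0.16), and neither passed the test. Kcnh8 had a mean of 0.510 TPM. Kcnc2, Kcnh8 and Kcnj11 were chosen after their values were seen.

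p300 is known to be recruited to promoters and enhancers by transcription factors such as CREB. The promoters of members whose groups did not overlap, with p300-ifKO lower, were therefore read. Windows were given for Kcnc2, Kcnf1 and Kcnj2, and Kcnb2 had none. The 250 bases before the annotated start (RefSeq, GRCm38.p6) follow for Kcnj2 and Kcnc2, given as the contrast of a promoter rich in CG pairs with a promoter poor in them. The Kcnj2 window is chr11:111065914-111066163 and the Kcnc2 window, before the first of its starts, is chr10:112269767-112270016, both on the plus strand. Capitals mark matches to GGGCGG, the GC box, on either strand.
Kcnj2: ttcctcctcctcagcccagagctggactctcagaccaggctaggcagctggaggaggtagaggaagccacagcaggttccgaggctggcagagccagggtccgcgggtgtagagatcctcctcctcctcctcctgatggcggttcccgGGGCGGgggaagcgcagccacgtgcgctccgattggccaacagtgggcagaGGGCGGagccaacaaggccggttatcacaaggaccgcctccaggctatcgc
Kcnc2: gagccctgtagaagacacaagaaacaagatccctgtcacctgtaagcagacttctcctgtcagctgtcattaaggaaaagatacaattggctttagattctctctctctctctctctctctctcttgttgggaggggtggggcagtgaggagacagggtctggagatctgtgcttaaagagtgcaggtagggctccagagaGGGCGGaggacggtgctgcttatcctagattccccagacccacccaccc
The Kcnj2 window held 2 GC boxes and 14 CG pairs at 65.6% GC, and the Kcnc2 window 1 GC box and 2 CG pairs at 52.4% GC. The windows before later Kcnc2 starts held 0 GC boxes and 4 or 5 CG pairs, at 52.8% to 58.8% GC. Among them was chr10:112270871-112271120, which ends just before the gene start given above. The Kcnf1 window, not printed, held 0 GC boxes and 1 CG pair at 51.2% GC.

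Windows from 250 bases before to 50 bases after a start were given for 69 of the 94 genes, 94 windows in all, and for 27025 genes of the genome. Those 27025 genes were not selected by biotype or level, whereas the members are all protein-coding. A GC box was found in 43 of the 69 genes (62.3%), against 38.2% of all genes. The TATA box letters TATAAA were found in 5 (7.25%), against 15.7% of all genes. The cAMP response element TGACGTCA, the CREB site, was found in 0 of the 69 genes, against 2.03% of all genes, and its core TGACG in 18 (26.1%), against 23% of all genes. All were searched on both strands, and TGACG is part of TGACGTCA. A match is a description of the letters in this window.

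The potassium channel genes differed between libraries along their exonic length, which ran from 1270 to 16976 bases. Across the 80 genes, Spearman's rho between exonic length and the deviation of a library from the mean of all 6 was −0.51 in p300-ifKO replicate 1 and −0.46 in p300-ifKO replicate 3. It was 0.33 in p300-ifKO replicate 2 and 0.17, 0.38 and 0.39 in control replicates 1 to 3. Over all 17071 genes the values were −0.50, −0.28 and 0.42 for p300-ifKO replicates 1, 3 and 2 and 0.18, 0.16 and 0.41 for the controls, so the trend was one of the libraries and not of the channel genes alone. Genes of 1 library share its depth and RNA, and these are descriptions across genes. The p300-ifKO replicate 1 library was the lowest of the 6, by TPM, for 43 of the 80 genes.

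**Figure D4:**
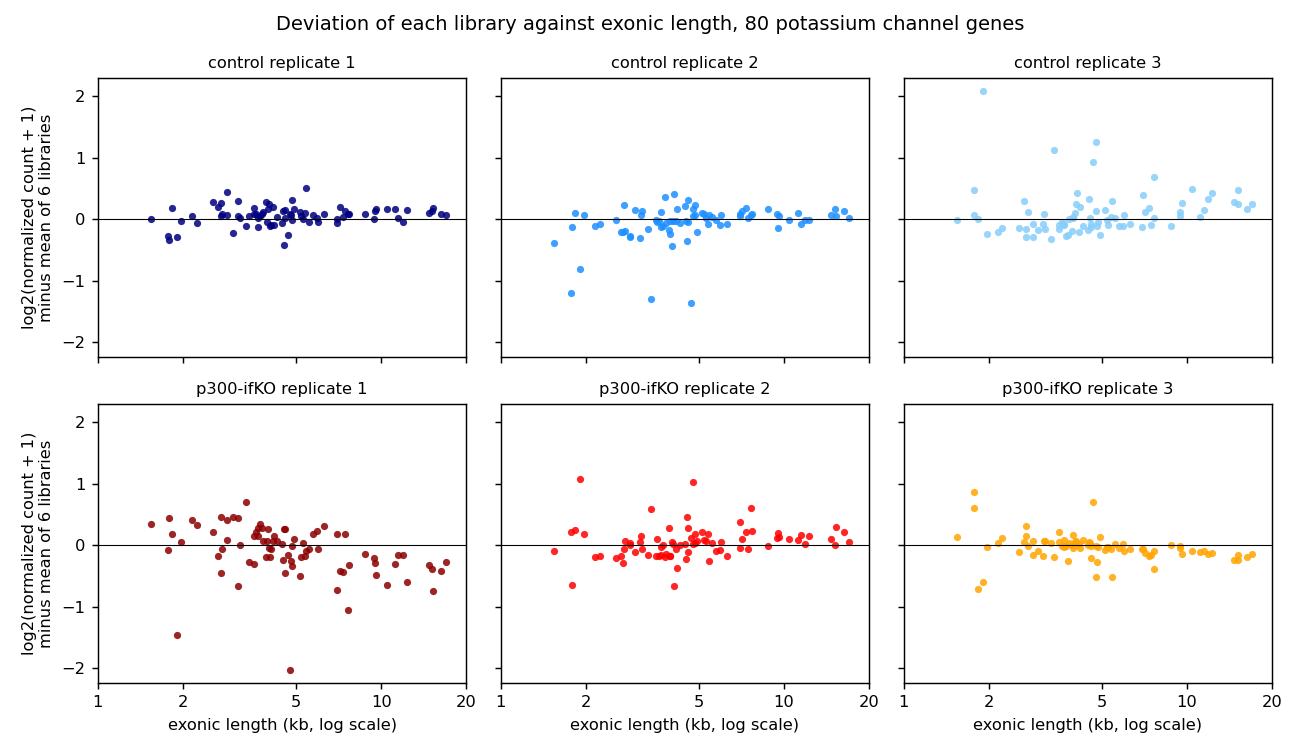
Deviation of each library, as log2(normalized count + 1) minus the mean of the 6 libraries, against exonic length in kb on a log axis, with 1 point per gene for the 80 potassium channel genes and 1 panel per library. Long genes lie below 0 in p300-ifKO replicates 1 and 3 (rho −0.51 and −0.46) and above 0 in p300-ifKO replicate 2 and control replicate 3.

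The fold changes followed the same line. All 19 members with an exonic length of at least 7000 bases had a log2 fold change on the lower side, with a median of −0.24, and 3001 of 3630 genes of that length in the whole table did, with a median of −0.15. Of the 32 members under 4000 bases, 20 were on the higher side, with a median of 0.03, as were 5681 of 8334 genes of that length, with a median of 0.12. With length offsets, the median of the 19 long members was −0.04 and that of all 80 members was 0.0072, against 0.0312 for all genes. RNA quality values were not used here. The length trend moved with p300-ifKO status in 2 of the 3 p300-ifKO libraries, and that of p300-ifKO replicate 2 over the members was within the range of the controls.

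The p300-ifKO replicate 2 library decided how many members were called. Its Ep300 level was near control and its Esr1 level was raised. Whole-gene Ep300 counts do not measure recombination. By TPM, Ep300 was lowest in p300-ifKO replicate 1 and next lowest in p300-ifKO replicate 3, as were the members named below. The part of Ep300 and Esr1 in these calls was not tested. Without that library, DESeq2 called 8 of 60 members lower (13.3%), against 3.79% of all genes lower, and 0 higher, against 4.11% of all genes higher. Among the 8 genes, each at least 7138 bases in exonic length, were Kcnc2, Kcnd3, Kcnh1, Kcnh7, Kcnj6, Kcnk9 and Kcnq3, all chosen after their values were seen. Of members of at least 7000 bases, 42.1% were called (8 of 19), against 10.3% of all genes of that length. The 2 sets were not matched in level or, above 7000 bases, in length. The called genes named here encode an M-current pore (Kcnq3), A-type and rapid delayed rectifier pores (Kcnd3 and Kcnc2), ether-a-go-go pores (Kcnh1 and Kcnh7), a G protein-gated rectifier (Kcnj6) and a leak channel (Kcnk9).

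By TPM, in all of these p300-ifKO replicate 1 was the lowest and p300-ifKO replicate 3 the next lowest library, and p300-ifKO replicate 2 lay among the controls or above them. On normalized counts Kcnc2 was the exception, with 3297 in p300-ifKO replicate 2 and 3319 in the lowest control. Kcnj6 (chr16:94748636-94997701, minus strand) was at 10.04, 9.64 and 15.8 TPM in control and at 4.02, 14.9 and 7.12 TPM in p300-ifKO mice. Without p300-ifKO replicate 2 its log2 fold change was −0.99 (adjusted p 0.0161 in DESeq2), and with length offsets as well it was −0.79 (adjusted p 0.0177 in DESeq2). It was then the 1 member called of 55 (1.82%), against 3.31% of all genes. With all libraries it was −0.43, and with 1 surrogate variable, a covariate estimated from the counts, 0.07.

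Kcnq3 (chr15:65986387-66286642, minus strand) was at 55.8, 53.1 and 65 TPM in control and at 36.6, 58.1 and 43.3 TPM in p300-ifKO mice. Without p300-ifKO replicate 2, its log2 fold change was −0.43 (adjusted p 0.0277 in DESeq2), and it shrank to −0.07 with length offsets as well. Kcnh7, with an exonic length of 15226 bases, went from −0.71 to −0.37 in the same way. Kcnj2 and Kcnb2 were not called without that library, with −0.59 and −0.45 (adjusted p 0.0625 and 0.0631 in DESeq2).

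**Figure D5:**
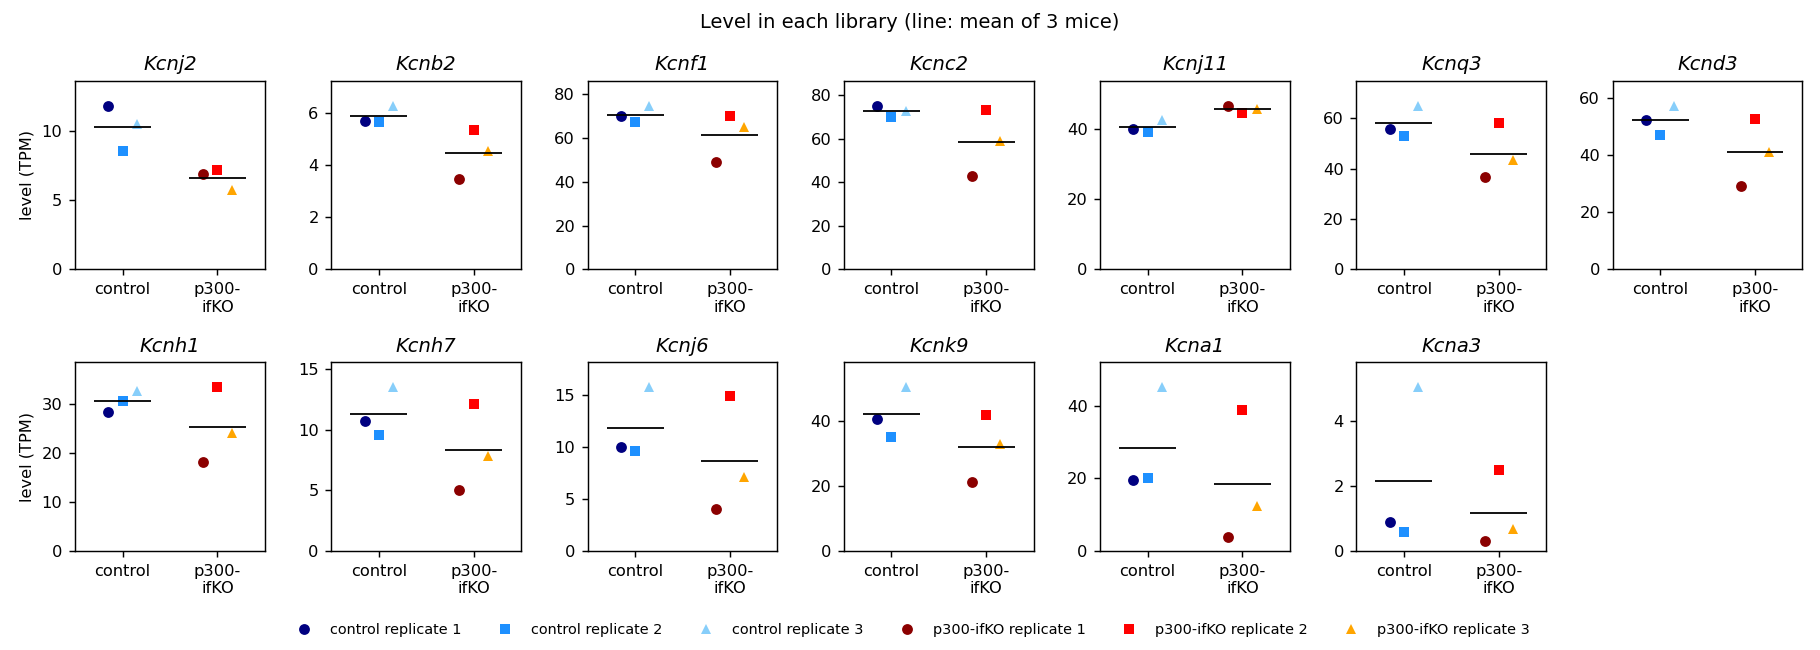
Level in TPM of 13 potassium channel genes in each library, with the mean of 3 mice as a line and each axis starting at 0. Kcnj2, Kcnb2, Kcnf1 and Kcnc2 show groups that do not overlap on normalized counts with p300-ifKO lower and Kcnj11 with p300-ifKO higher, while by TPM p300-ifKO replicate 2 (red square) sits among the controls or above them for the genes called without it; Kcna1 and Kcna3 show the widest spread.

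The study lists 11 Kcn genes as lower in mice that lack the paralogue CBP in the same neurons, a list made on libraries not analysed here: Kcna4, Kcnab1, Kcnf1, Kcnh3, Kcnip2, Kcnip3, Kcnj4, Kcnma1, Kcnn2, Kcnq5 and Kcnv1. The CBP list came from several screens that included females, whereas only males were compared here. In p300-ifKO mice 0 of the 11 passed the test, 8 were on the lower and 3 on the higher side, and their log2 fold changes had a median of −0.11, or of 0.0001 once length offsets were used. Only 0.0061% of all genes passed, so 0 of 11 does not set this list apart. Of the 17070 genes with a mean of at least 10 normalized counts, 8657 were on the lower and 8413 on the higher side. Kcna4, an A-type pore, had the most negative value, −0.28 (SE 0.20), with 25.9, 23.7 and 19.9 TPM in control and 14.5, 24.3 and 16.8 TPM in p300-ifKO libraries, which overlapped. Kcnab1, its beta subunit, had −0.20 (SE 0.14) and the highest value was 0.19 (SE 0.18) for Kcnj4.

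Proteins that assemble with potassium channels or move potassium were read as further lists. Of 14 channel partners, 0 passed the test, with 10 on the lower and 4 on the higher side and a median log2 fold change of −0.06. Dpp6, which joins Kcnd channels, was at 139, 142 and 137 TPM in control and at 118, 145 and 124 TPM in p300-ifKO libraries. Of 11 pump and cotransporter genes, 0 passed, with 8 on the lower and 3 on the higher side and a median of −0.09. Slc12a5, the neuronal chloride-extruding potassium cotransporter, was at 304, 282 and 298 TPM in control and at 201, 329 and 255 TPM in p300-ifKO libraries, again with p300-ifKO replicate 1 lowest and replicate 2 highest. With length offsets the medians were 0.0019 for the partners and 0.0196 for the pumps and cotransporters. Only 0.0061% of all genes passed, so the counts of 0 do not set these lists apart. Of 17070 genes with a mean of at least 10 normalized counts, 8657 were on the lower side.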

How the data were processed

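For each of 6 hippocampal libraries, the deposited table gave counts per gene that had not been normalized. The authors trimmed single-end 50 base reads with Trim Galore 0.6.4, aligned them to GRCm38 with STAR 2.6.1, kept reads above a mapping quality of 10 and counted them on exons of Ensembl release 99. Since no strand setting is named, genes with antisense overlap are uncertain, and multiply mapping reads are lost. No column of another sample was present (0 unused). Groups came from sample titles. Symbols, biotypes and positions came from GENCODE M21. The exonic length in the table was identical for 88 of the 94 members. TPM was computed from counts and that length.

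All genes were fitted with DESeq2 (version 1.42.0, R 4.3.3; two-sided Wald test, no covariate, default filtering), with Benjamini-Hochberg adjustment over all genes tested and a threshold of 0.05. Alternatives were edgeR (version 4.0.16), TMM factors, a minimum of 10 counts in 3 libraries, smooth length offsets per library (mgcv 1.9.3), 1 surrogate variable (sva 3.50.0), omitting each library in turn and a replicate block. DESeq2, edgeR and the length offsets were also run on simulated data, and no result here rests on those runs. Libraries with the same replicate number did not all deviate together (correlations 0.27, −0.28 and 0.13 over 17071 genes), so the numbers were not taken as pairs. Members named were the leading gene of each symbol stem, the CBP list, genes of other cell types and those with an unadjusted p under 0.05; any other was chosen after its values were seen. Some members that these rules pick are not reported here by name, though they stay in all counts and sums. Members and lists were chosen with earlier results of these data known.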

Additional observations from a re-analysis of the deposited data

How the results depend on the processing

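The count of 0 members called held with edgeR, TMM factors, the count minimum, length offsets, 1 surrogate variable and the replicate block, under which the median log2 fold change was −0.037. When each library was left out, between 0 and 8 members were called (8 without p300-ifKO replicate 2) and the median lay between −0.062 and −0.013 (without control replicate 1). Length offsets moved the median to 0.0072. Length offsets together with leaving out p300-ifKO replicate 2, chosen after seeing the data, gave 1 call of 55 (1.82%, against 3.31% of all genes) and a median of 0.0207 (0.0451 for all genes). The cause was not tested. With 3 mice a group, small changes were not detectable, and the direction of uncalled members near 0 depended on the setting. With length offsets the log2 fold change turned to 0.0189 for Kcna2, 0.0247 for Kcnj10, 0.00404 for Kcnma1, 0.108 for Kcnn2, 8.66e-05 for Kcnq5, 0.0603 for Kcns2 and 0.0934 for Kcnt1. With 1 surrogate variable it turned to −0.0449 for Kcnab2, −0.0836 for Kcnh3, −0.113 for Kcnip3, 0.0756 for Kcnj10, −0.0428 for Kcnj4, 0.0677 for Kcnj6, 0.0327 for Kcnq5, 0.0266 for Kcns2 and 0.11 for Kcnt1. With TMM factors it was 0.00272 for Kcns2. With each library left out it ran from −0.0274 to 0.107 for Kcnab2, −0.0583 to 0.0897 for Kcnh3, −0.112 to 0.05 for Kcnip2, −0.0616 to 0.11 for Kcnip3, −0.141 to 0.0425 for Kcnj10 and −0.227 to 2.66 for Kcnj13. Likewise it ran from −0.0848 to 0.229 for Kcnj16, −0.22 to 0.0503 for Kcnj8, −0.132 to 0.0441 for Kcnn2, −0.265 to 0.0111 for Kcnq5, −0.309 to 0.125 for Kcnrg, −0.0361 to 0.0189 for Kcns2 and −0.177 to 0.0612 for Kcnt1.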
